A study of Mus musculus with 2 samples.

Results

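Smooth muscle-like cells with Tgfbi were selected from Drop-seq profiles of whole newborn mouse lung by the UMIs (unique molecular identifiers, each standing for 1 captured transcript) of a few genes. A cell was a member when it had at least 2 UMIs of Tgfbi, at least 1 UMI in total of the smooth muscle genes Actg2, Cnn1 and Des, no UMI of the lineage genes Epcam, Pecam1, Ptprc, Tyrobp and Fcer1g, and at most 10% of its UMIs from mitochondrial genes. Of 8003 cells within the mitochondrial limit, 204 met the rule (2.55%, 95% Wilson interval 2.23 to 2.92%). They made up 70 of 2388 cells in Batch 1 (2.93%, 2.33 to 3.69%) and 134 of 5615 cells in Batch 2 (2.39%, 2.02 to 2.82%). Every value that chose the cells is given here as a description and carries no test.

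Each batch was a preparation of whole lung from wild-type female C57BL/6J mice at postnatal day 1 (PND1), dissociated with enzymes, treated to lyse red blood cells and captured in droplets. The cells came from 2 individual mice. The Drop-seq libraries held no treatment, other genotype or other age, so all comparisons here are between classes of cells within the same preparations. The members held 95272 UMIs in Batch 1 and 245608 in Batch 2, with medians of 1241.5 and 1632 UMIs per cell against 1386.5 and 2014 over all cells. The batches shared no cell barcode. The 2 batches are the replicates and cells are not. Differences that all classes of a batch share were taken out of the tests. The p-values rest on how far class differences varied between these preparations, with the spread estimated jointly over genes. Intervals on shares cover counting error only.

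Tgfbi encodes a secreted matrix protein (transforming growth factor beta-induced protein, also called βig-h3) that binds integrins and collagens, and its transcription is raised by TGF-beta. Actg2 (enteric gamma actin), Cnn1 (calponin) and Des (desmin) belong to the contractile and filament apparatus of smooth muscle, much of which is switched on by serum response factor (SRF) and its coactivator myocardin at CArG boxes in promoters. In the newborn lung, smooth muscle surrounds airways and vessels, while alveolar myofibroblasts at the septal tips carry Pdgfra and share part of the contractile programme.

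The members were compared with both kinds of cells that border on them. Myofibroblast-like cells with Tgfbi had at least 2 UMIs of Tgfbi, at least 1 of Pdgfra or Ednrb and none of Actg2, Cnn1 or Des, and counted 149 cells (37 in Batch 1, 112 in Batch 2). Tgfbi-low Acta2-high cells had at most 1 UMI of Tgfbi and at least 5 of Acta2 (smooth muscle alpha actin), and counted 61 cells (11 in Batch 1, 50 in Batch 2). The lineage gates and the mitochondrial limit were the same for all classes. Median UMIs per cell were 1050 and 1669 in the myofibroblast-like class and 2410 and 2761 in the Tgfbi-low Acta2-high class.

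Promoters are shown for the genes that stood higher in the members than in myofibroblast-like cells and held a CArG box, the SRF motif (CC, 6 bases of A or T, GG), between 250 bases before and 50 bases after a transcription start. The motif is its own reverse complement, so that both strands were read at the same time. The windows are given 5′ to 3′ on the strand of the gene with the box in capitals, from RefSeq (GRCm38.p6).
Myl9 (chr2:156775278-156775337, + strand): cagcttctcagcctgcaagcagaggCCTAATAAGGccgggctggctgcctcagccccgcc
Fhl2, first start (chr1:43196823-43196882, - strand): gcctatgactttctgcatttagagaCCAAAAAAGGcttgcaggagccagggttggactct
Fhl2, other start (chr1:43163962-43164017, - strand): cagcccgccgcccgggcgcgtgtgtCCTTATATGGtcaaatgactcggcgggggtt
Filip1l (chr16:57549155-57549214, + strand): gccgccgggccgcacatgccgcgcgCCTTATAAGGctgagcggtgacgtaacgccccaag
Actc1 (chr2:114052888-114052947, - strand): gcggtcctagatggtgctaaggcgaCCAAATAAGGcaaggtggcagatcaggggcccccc

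Of the 63 genes called higher, 41 were matched to a RefSeq promoter and 4 of these (9.76%) held the box. So did 52 of 2129 matched genes tested (2.44%) and 488 of all 27025 genes with a promoter (1.81%). Counted by promoter and not by gene, the share was 1.63% of all 32851. None of 19 matched genes called lower had one. On the list of contractile genes, 3 of 18 matched members had it (Myl6, Myl9 and Vcl). Of Tgfbi and the 3 muscle genes of the gate, 3 were matched and none had the letters in this window. These are matches of letters and no test was made of them. Filip1l, which encodes a filamin A-interacting protein, measured 976 and 871 CPM (the usual scaling of UMI counts to the total UMIs of the class in that batch) in the members of Batch 1 and Batch 2 against 359 and 314 CPM in myofibroblast-like cells, and Fhl2, a LIM-domain partner of SRF, 315 and 232 CPM against 79.9 and 43.5 CPM.

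Tgfbi (chr13:56609523-56639562, GRCm38, + strand) had a median of 15 UMIs per member and a range of 2 to 57. Summed over the members it reached 9573 CPM in Batch 1 and 10008 CPM in Batch 2. Myofibroblast-like cells had 5571 and 4757 CPM with a median of 5 UMIs per cell, and Tgfbi-low Acta2-high cells, which the gate kept low, 37.5 and 24.2 CPM. The members had about the same summed level of Tgfbi in both batches, above that of the myofibroblast-like class. Tgfbi chose both classes and the muscle genes parted them, so these values describe the gates and are no result about the members. In Pecam1 cells, which had at least 2 UMIs of that endothelial gene and served as background, Tgfbi stood at 62.8 and 260 CPM and was seen in 12.3% and 39.9% of cells at median depths of 1934.5 and 2821 UMIs.

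The 3 muscle genes were rarely seen together. Actg2 alone brought in 49 members, Des alone 71 and Cnn1 alone 10. Actg2 with Des was found in 35, Actg2 with Cnn1 in 13, Cnn1 with Des in 5 and all 3 in 21. Actg2 measured 1312 and 920 CPM in the members and 713 and 339 CPM in Tgfbi-low Acta2-high cells, where no muscle gene was asked for. Cnn1 measured 399 and 485 CPM against 188 and 96.9 CPM, and Des 724 and 627 CPM against 37.5 and 157 CPM. All 3 genes were therefore higher in the members of both batches than in cells picked for abundant Acta2, but the gate required them in the members only. In Pecam1 cells each of the 3 was seen in at most 1.5% of cells.

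Acta2 itself was no part of the rule for members. It stood at 2267 and 1262 CPM in the members, 579 and 140 CPM in myofibroblast-like cells and 3529 and 3385 CPM in the class chosen for it. It was unevenly spread: 100 of the 204 members had no Acta2 UMI (22 of 70 in Batch 1, 78 of 134 in Batch 2) and 27 had 5 or more. Acta2 was seen in 68.6% and 41.8% of members, 45.9% and 13.4% of myofibroblast-like cells, and 2.5% and 3.6% of Pecam1 cells.

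**Figure D1:**
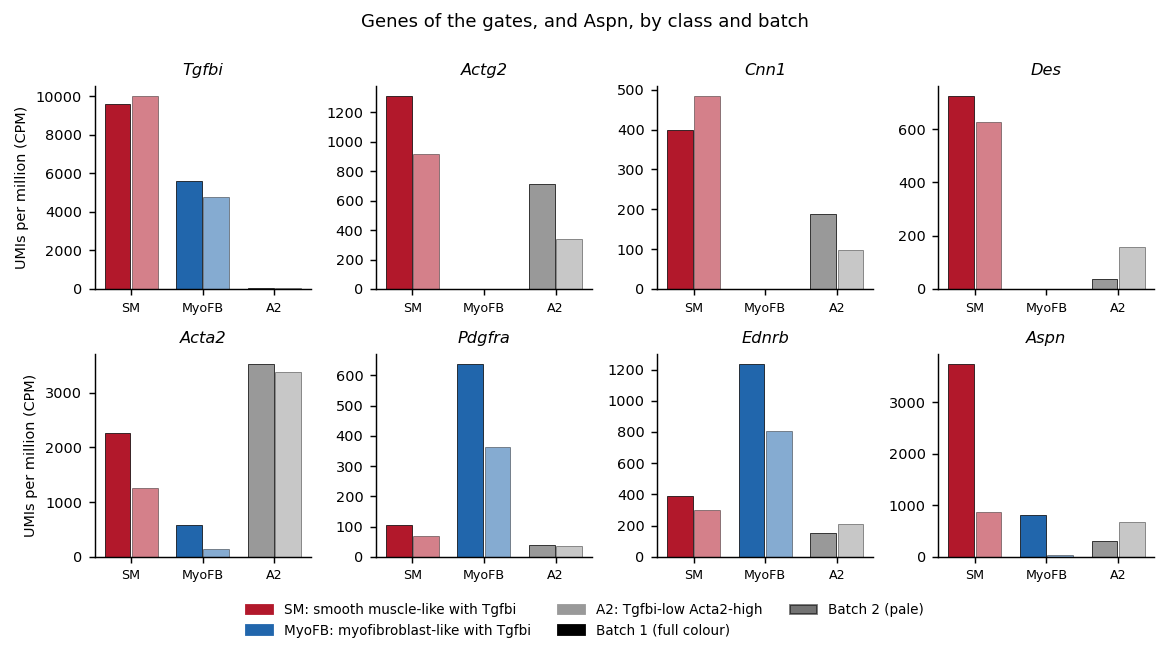
Level of the genes used in the gates, and of Aspn, in CPM (linear axes from 0) for the smooth muscle-like cells with Tgfbi (SM), the myofibroblast-like cells with Tgfbi (MyoFB) and the Tgfbi-low Acta2-high cells (A2), with 1 bar for each batch (full colour Batch 1, pale Batch 2) and no error bar. Tgfbi was at 9573 and 10008 CPM in the SM bars and at 37.5 and 24.2 CPM in the A2 bars, Acta2 fell between the other classes in the SM bars, and Aspn differed between the batches within each class.

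Members with more of the 3 muscle genes had more Acta2 and Tagln. Tgfbi had no such order in Batch 1 and rose in the same order, but by less, in Batch 2. In Batch 1, Acta2 was at 1337 CPM in the 43 members with 1 muscle gene, 2179 CPM in the 19 with 2 and 5926 CPM in the 8 with all 3. In Batch 2 the same steps were 340 CPM (87 members), 1231 CPM (34 members) and 5375 CPM (13 members). Tagln went from 1820 through 3029 to 6065 CPM in Batch 1 and from 542 through 1337 to 4711 CPM in Batch 2. Tgfbi was at 8746, 11782 and 8505 CPM in Batch 1 and 9333, 10761 and 11160 CPM in Batch 2. Median UMIs per cell also grew along these steps, from 1144 to 1843.5 and from 1454 to 2160, and their part in the order was not tested.

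At the edge of the gate, 4 members had exactly 2 Tgfbi UMIs, with 1507 CPM (3 cells) and 628 CPM (1 cell) of Tgfbi, while 16 cells with a muscle gene stayed outside with 1 Tgfbi UMI. The 90 members with a lone muscle UMI had 1313 and 332 CPM of Acta2 and 1666 and 428 CPM of Tagln, against 508 and 103 CPM of Acta2 and 815 and 172 CPM of Tagln in the 309 Tgfbi cells with none. The lineage genes removed 31 of 235 candidates. Pecam1 was seen in 21 of them, Epcam in 4, Ptprc in 3, Tyrobp in 4 and Fcer1g in 4, and these counts overlap.

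The label was checked against 5 other smooth muscle markers, Acta2, Tagln, Myh11, Lmod1 and Synpo2. At least 2 of the 5 were seen in 51 of 70 members of Batch 1 and 64 of 134 of Batch 2, while 5 and 38 members had none. Among myofibroblast-like cells 10 of 37 and 7 of 112 had at least 2, and 16 and 77 had none. So most members of each batch carried at least 1 further smooth muscle transcript, and 43 of the 204 had none of the 5. Pdgfra was seen in 24 members, Ednrb in 57 and either in 71 (24 in Batch 1, 47 in Batch 2), so that the members were not free of the genes that define the myofibroblast-like class.

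Against myofibroblast-like cells, 8 of 17 contractile genes, 9 of 18 genes of collagens and other matrix proteins and 3 of 12 elastic fibre genes were higher in the members, and none of these lists had a gene that was lower. UMI counts were summed by class and batch and compared with edgeR's quasi-likelihood test, with batch as a block because the classes of a batch come from the same preparation and with the gate genes left out. Of 2993 genes tested, 93 (3.11%) differed at a Benjamini-Hochberg adjusted p under 0.05, 63 higher (2.1%) and 30 lower (1.0%) in the members, and all 93 had the same direction in each batch. The call count rests on the block: without it edgeR called 0 genes (136 at an unadjusted p under 0.05), and DESeq2 with the block called 18. Since the classes were cut on muscle genes of the same cells, genes that vary with those across cells are not independent of the gate.

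Of 22 contractile genes, 17 were tested, 8 were higher in the members, none was lower, and 9 did not pass. Their median log2 fold change was 1.06, against 0.01 over all genes tested, and 16 of the 17 had a positive estimate. Tagln, which encodes the actin-bundling protein transgelin, measured 2803 and 1323 CPM in the members of Batch 1 and Batch 2 and 479 and 203 CPM in the comparison class (log2 fold change 2.66 ± 0.29 SE, edgeR adjusted p = 6.2e-16). Myh11, the smooth muscle myosin heavy chain, measured 651 and 472 CPM against 140 and 77.3 CPM (2.53 ± 0.42, edgeR adjusted p = 6.1e-07). For both genes the lowest member value was above the highest value of the comparison class.

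Lmod1, leiomodin, which seeds actin filaments in smooth muscle, had 42 UMIs in the members (199 and 93.6 CPM) and 1 in the comparison class (20.0 and 0 CPM), a ratio of 31.7 with an exact counting interval of 5.38 to 1280 (edgeR adjusted p = 4.1e-05). Tpm2, beta-tropomyosin, measured 735 and 525 against 240 and 77.3 CPM. Myl9, the regulatory light chain with the CArG box shown above, measured 661 and 224 against 280 and 24.2 CPM (log2 fold change 2.03 ± 0.46, edgeR adjusted p = 0.0019), and its call held in 5 of 11 alternatives. Tpm1, Cald1 (caldesmon) and Nexn (nexilin) were higher by 1.06 ± 0.27, 1.11 ± 0.27 and 1.25 ± 0.28. Mylk, the kinase that phosphorylates the light chain, did not pass, with 724 and 269 CPM against 759 and 338 CPM.

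For Tagln and Myh11, the share of cells with a UMI put members above myofibroblast-like cells in each batch, as the levels did. Between batches the Myh11 shares, taken from cells that were not thinned, rose while its CPM fell. Tagln was seen in 85.7% and 54.5% of members, 29.7% and 16.1% of myofibroblast-like cells and 2.5% and 1.8% of Pecam1 cells. After each cell was thinned to 800 UMIs, which left out 5 and 4 members and 2 and 2 comparison cells, the shares were 75.4% and 43.1% in the members and 28.6% and 10.9% in the comparison class. Myh11 was seen in 34.3% and 38.1% of members against 8.11% and 9.82% of myofibroblast-like cells and 0.98% and 1.3% of Pecam1 cells. Regulators were at the limit of this depth, as Myocd, the gene of myocardin, had 5 and 14 UMIs over all members.

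Of 22 genes of collagens and other matrix proteins, 18 were tested, 9 were higher and none was lower in the members, with a median log2 fold change of 1.21. Postn (periostin, a matrix protein that binds collagen) measured 598 and 672 CPM against 79.9 and 87.0 CPM (2.96 ± 0.41, edgeR adjusted p = 3.5e-10). Col3a1 measured 4052 and 2944 against 1498 and 1228 CPM, and Col1a1 2173 and 1311 against 759 and 575 CPM. Col1a2, Col5a1, Col5a2, Col12a1, Sparc and Tnc (tenascin C) were higher by 1.00 to 2.21 on the log2 scale. The basement membrane collagens Col4a1 and Col4a2 did not pass, at 588 and 1042 CPM against 619 and 1126 CPM for Col4a1.

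Of 12 elastic fibre genes tested, 3 were higher and none was lower. Loxl1, a lysyl oxidase-like enzyme that crosslinks elastin, measured 199 and 208 CPM against 20.0 and 19.3 CPM (3.39 ± 0.66, edgeR adjusted p = 4.6e-05). Loxl2 measured 1543 and 1535 against 280 and 749 CPM, and Mfap5, a microfibril protein, had 33 UMIs against 2, a ratio of 12.4 (exact counting interval 3.18 to 107). Eln, elastin, measured 399 and 615 CPM against 399 and 682 CPM and did not pass, with a log2 fold change of -0.08 ± 0.33.

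Of 9 tested genes of the TGF-beta pathway, Ctgf alone passed, at 1197 and 586 CPM against 300 and 77.3 CPM (2.50 ± 0.37, edgeR adjusted p = 8.7e-09). Ctgf, connective tissue growth factor, is a secreted protein induced by TGF-beta and by stretch. The ligand Tgfb2 was at 241 and 93.6 CPM against 240 and 87.0 CPM, and the latent TGF-beta binding protein Ltbp2 at 357 and 350 against 260 and 116 CPM, neither past the threshold. Among the secreted factors with the largest changes over all genes were Fst (follistatin, which binds activin), at 115 and 269 CPM against 0 and 29.0 CPM, and Pgf (placental growth factor), at 210 and 432 against 39.9 and 58.0 CPM. Ptgis, prostacyclin synthase, had 41 UMIs in the members and 2 in the comparison class, a ratio of 15.5 (exact counting interval 4.01 to 132). Dpt, dermatopontin, measured 241 and 171 CPM against 0 and 43.5 CPM.

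Of 6 myofibroblast genes tested, 1 was lower, none was higher and 5 did not pass. Enpp2 (autotaxin) measured 420 and 737 CPM in the members against 998 and 1663 CPM (-1.20 ± 0.29, edgeR adjusted p = 0.0033). Wnt5a measured 598 and 362 against 399 and 189 CPM (0.79 ± 0.38), Hhip (hedgehog interacting protein) 262 and 257 against 260 and 314 CPM (-0.18 ± 0.40), and Fgf18 126 and 73.3 against 79.9 and 77.3 CPM (0.19 ± 0.66). Aspn, asporin, stood at 3747 CPM in Batch 1 and 875 CPM in Batch 2 against 819 and 43.5 CPM. The difference had the same direction in both batches and did not pass (2.85 ± 1.62, edgeR adjusted p = 0.89).

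**Figure D2:**
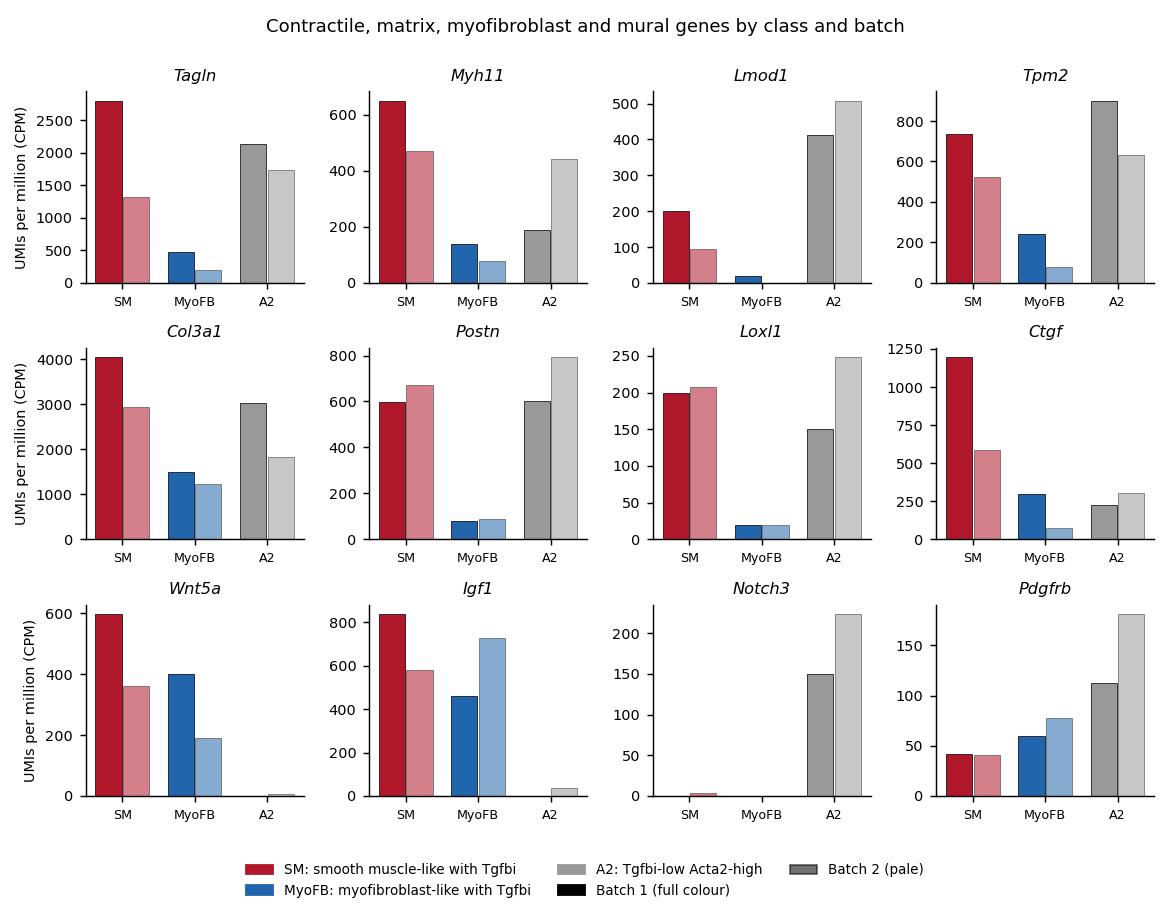
CPM (linear axes from 0) of contractile genes (Tagln, Myh11, Lmod1, Tpm2), matrix and secreted genes (Col3a1, Postn, Loxl1, Ctgf), myofibroblast genes (Wnt5a, Igf1) and mural genes (Notch3, Pdgfrb) in the smooth muscle-like cells with Tgfbi (SM), the myofibroblast-like cells with Tgfbi (MyoFB) and the Tgfbi-low Acta2-high cells (A2), with 1 bar for each batch and no error bar. Both SM bars lie above both MyoFB bars for the upper 8 genes, Wnt5a was at 598 and 362 CPM in SM and 0 and 6.05 CPM in A2, and Notch3 reached 150 and 224 CPM in A2 and at most 4.07 CPM in the others.

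The 30 genes that were lower included receptor genes. The largest decreases by the rule for named genes were in Cyp2e1 (a cytochrome P450; 3 UMIs in the members against 26, a ratio of 11.5 with an exact counting interval of 3.52 to 59.4), Angptl4 (a secreted inhibitor of lipoprotein lipase), Lrp4, Calcrl, Abi3bp, Ramp2, Plcb4, Eif4e3, Cd302 and Ramp1. Calcrl, Ramp1 and Ramp2 encode the subunits of the receptors for CGRP and adrenomedullin. Ramp2 measured 52.5 and 126 CPM in the members against 399 and 532 CPM (-2.31 ± 0.44, edgeR adjusted p = 3.3e-05), and Ramp1 42.0 and 40.7 against 280 and 111 CPM. Calcrl measured 31.5 and 20.4 against 120 and 155 CPM. Of 44 genes called here and followed through the alternatives, 7 held their call in under 50% of those with an adjusted p, namely Abi3bp (4 of 9), Actc1, Col5a1, Enpp2 and Myl9 (5 of 11 each), Atf3 (1 of 8) and Calcrl (2 of 6).

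Endothelial genes moved with these. The 11 endothelial markers summed to 147 and 318 CPM in the members and 759 and 1697 CPM in myofibroblast-like cells, with Emcn at 0 in the members and no marker at 0 in the comparison class, and both that were tested (Ramp2 and Calcrl) were lower. Ednrb, which let cells into the comparison class, was seen in 44.1% and 75.1% of Pecam1 cells. Their part in the lower genes was not tested. Haemoglobin moved as well: the 5 erythroid markers summed to 57016 and 5896 CPM against 106703 and 28469 CPM, and all 4 tested (Hba-a1, Hba-a2, Hbb-bs and Hbb-bt, near-identical pairs that can share reads) were lower. Its part in the other results was not tested.

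Sftpc, the surfactant protein of alveolar type 2 cells, was called higher in the members, at 2918 and 2410 CPM against 679 and 1276 CPM (1.47 ± 0.27, edgeR adjusted p = 9.8e-06). It was seen in 51.4% and 77.6% of members and in 59.8% and 84.9% of Pecam1 cells, which should lack it and were sequenced more deeply. Thinned to 800 UMIs the shares were 35.4% and 57.7% in the members, 62.9% and 57.3% in myofibroblast-like cells and 34.0% and 45.2% in Pecam1 cells. Members and myofibroblast-like cells stood in the opposite order to their CPM in Batch 1, so that no order is read from the shares. Cells with 5 or more Sftpc UMIs numbered 17 among the members (2 in Batch 1, 15 in Batch 2) and 16 among the comparison cells (0 and 16), and without them the log2 fold change was -0.22 and not called. This cut was made on the tested gene itself and shrinks any difference in it, so it cannot decide whether Sftpc differed. The 12 epithelial markers summed to 3527 and 3457 CPM in the members, 859 and 2055 CPM in myofibroblast-like cells and 451 and 1072 CPM in Tgfbi-low Acta2-high cells, with Foxj1 at 0 in the members. With the Sftpc cells left out of every class, 85 genes were called, 77 of them among the 93. Of these 93, 89 could be tested there.

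The remaining lists gave few calls in this comparison, where 3.11% of all genes tested were called. Of 10 vascular mural genes tested, Mustn1 alone was higher, at 556 and 391 CPM against 140 and 91.9 CPM. It is known as a nuclear protein of muscle and skeleton, and the study lists it as selective for its Pericyte-1 cells. Over both batches it had 149 of 340880 UMIs in the members and 113 of 191794 in Tgfbi-low Acta2-high cells. Atf3 was the only 1 of 12 immediate early genes to pass. None of the tested transcription factors (9 genes), integrins (4), WNT (8), hedgehog (3), contraction receptor and calcium (3), matrix fibroblast (8) or cell cycle genes (2) passed. Of 3 cardiac and skeletal muscle genes tested, Actc1 passed, with 12 UMIs in the members and 0 in the comparison class, at least 3.02-fold higher by a floor of 3 counts over the class. The members were at 0 for Myl7 and Tnni3, for all 6 neural and Schwann cell markers, and for Csf1r, Spi1 and Cd79a among immune markers.

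Against Tgfbi-low Acta2-high cells, the members had less of 5 of 10 vascular mural genes tested and more of 5 of 6 myofibroblast genes. Of 17 contractile genes tested, none was higher and 5 were lower. Actg2, Cnn1 and Des, as gate genes, were not tested. The classes were cut on Tgfbi, Acta2 and the muscle genes of the same cells. Genes that vary with those across cells are not independent of the gates. In the same fit 322 of 2993 genes (10.8%) differed, 173 higher (5.78%) and 149 lower (4.98%) in the members, and 313 had the same direction in each batch. The comparison rests on 11 cells and 26635 UMIs in Batch 1, so that 1 UMI there is worth many CPM and a level of 113 CPM is 3 UMIs. Without the block 24 genes were called (354 at an unadjusted p under 0.05), and DESeq2 called 70. Both comparisons used the same member libraries.

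**Figure D3:**
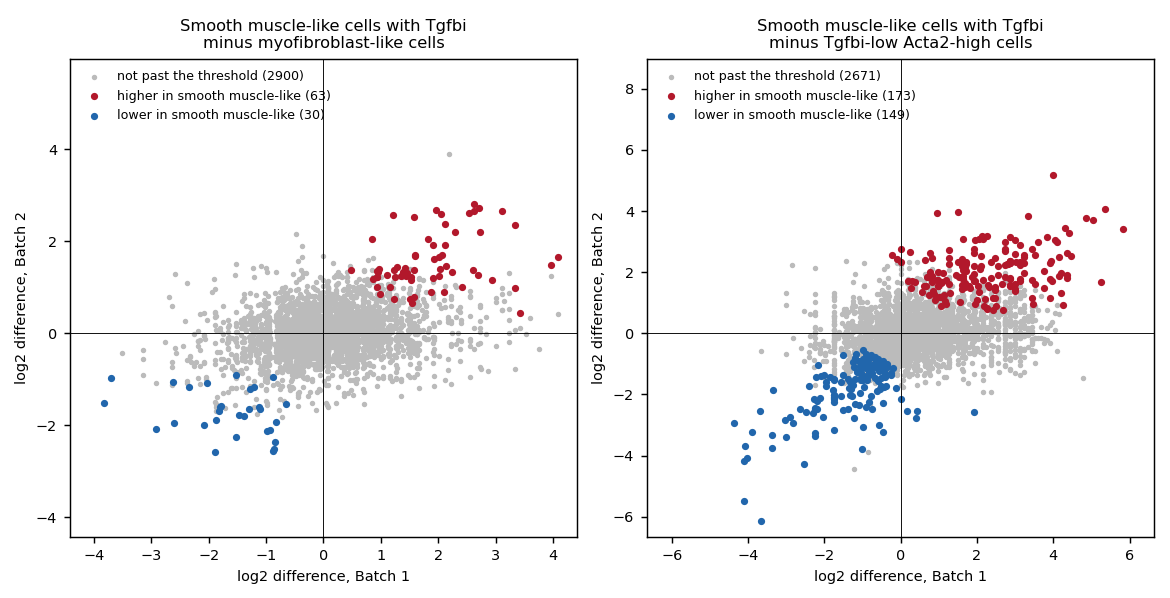
Log2 difference in CPM (prior count of 2) in Batch 1 against that in Batch 2 for the 2993 genes tested, for smooth muscle-like cells with Tgfbi minus myofibroblast-like cells on the left and minus Tgfbi-low Acta2-high cells on the right. Red points are genes called higher (63 and 173) and blue points genes called lower (30 and 149) in the members by edgeR at an adjusted p under 0.05, grey points the other genes; every called gene on the left lies on the same side of 0 on both axes, and 313 of 322 on the right.

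Of the 17 contractile genes tested, none was higher, 5 were lower and 12 did not pass, with a median log2 fold change of -0.15 against 0.11 over all genes. Lmod1 was the clearest of the 5, at 199 and 93.6 CPM against 413 and 509 CPM (-1.98 ± 0.44, edgeR adjusted p = 0.00022). Actn1 (alpha-actinin) measured 241 and 89.6 against 638 and 291 CPM. Tpm1, at 1984 and 1368 against 2553 and 3203 CPM, and Mylk, at 724 and 269 against 1389 and 593 CPM, were called as well, and both calls were lost, with log2 fold changes of -0.53 and -0.24, when 8 comparison cells with a cardiac gene were left out. Ppp1r14a, an inhibitor of myosin phosphatase, was lower in Batch 2 (20.4 against 206 CPM) and not in Batch 1 (189 against 150 CPM). Tagln and Myh11 did not pass, at -0.10 ± 0.26 and 0.45 ± 0.36.

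Restricted to the 27 members with at least 5 Acta2 UMIs (14 in Batch 1, 13 in Batch 2), which matched the comparison class on that gate, 57 of 933 genes were called, 45 of them among the 322. Mylk and Tpm1 were then higher in the members, at 0.42 and 0.37 on the log2 scale, and neither was called. The comparison class itself had a muscle gene in 36 of 61 cells, and against those 36 cells 219 genes were called.

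Of 10 vascular mural genes tested, 5 were lower and 1 was higher in the members, with a median log2 fold change of -1.73. Notch3, the Notch receptor of vascular smooth muscle and pericytes, had 1 UMI in 204 members (0 and 4.07 CPM) and 41 UMIs in the 61 comparison cells (150 and 224 CPM), a ratio of 72.9 with an exact counting interval of 12.4 to 2948 (edgeR adjusted p = 4.8e-06). Map3k7cl had no UMI in the members and 25 in the comparison class, at least 14.8-fold lower. Pdgfrb, the receptor of mural cells for PDGF-B, measured 42.0 and 40.7 against 113 and 182 CPM (-2.04 ± 0.64, edgeR adjusted p = 0.019).

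The subunits of soluble guanylate cyclase, Gucy1a3 and Gucy1b3, were called lower on the strength of Batch 2, where they measured 53.0 against 345 CPM and 24.4 against 200 CPM. In Batch 1 they measured 52.5 against 37.5 CPM and 42.0 against 0 CPM, with 1 and 0 UMIs in the comparison class. Kcnj8, an ATP-sensitive potassium channel subunit, went the other way, at 252 and 265 CPM in the members against 0 and 30.3 CPM (3.20 ± 0.65, edgeR adjusted p = 3.5e-05). It measured 240 and 227 CPM in myofibroblast-like cells, which is to say in both Tgfbi classes.

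All 5 myofibroblast genes that passed were higher in the members, of 6 tested. Wnt5a had 146 UMIs in the members and 1 in the comparison class, a ratio of 82.1 with an exact counting interval of 14.5 to 3267 (edgeR adjusted p = 1.4e-11). Igf1, insulin-like growth factor 1, measured 840 and 578 CPM against 0 and 36.3 CPM (4.37 ± 0.52, edgeR adjusted p = 1.6e-14). Against myofibroblast-like cells Igf1 did not pass, with 222 of 340880 UMIs in the members and 173 of 256940 in that class. Hhip measured 262 and 257 against 37.5 and 30.3 CPM, Enpp2 420 and 737 against 225 and 30.3 CPM, and Fgf18 had 30 UMIs against 0, at least 5.63-fold higher. The median of the list was 3.77, or 3.04 with Fgf18 at its bound.

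Matrix genes were abundant in both classes. Of the 18 tested 16 did not pass, a share of calls near the 10.8% over all genes, so nothing particular to this list is read from it. Of 18 collagens and other matrix genes tested, Tnc was higher, at 966 and 493 CPM against 150 and 133 CPM (1.95 ± 0.39, edgeR adjusted p = 2.8e-05), and Fn1, fibronectin, was lower, at 126 and 89.6 against 826 and 545 CPM (-2.69 ± 0.43, edgeR adjusted p = 4.6e-08). Postn, which stood apart from myofibroblast-like cells, measured 598 and 672 CPM against 601 and 793 CPM here and did not pass. Of 12 elastic fibre genes, Mfap2 and Loxl2 were higher and Mfap4 and Mfap5 lower. Loxl2 measured 1543 and 1535 against 563 and 375 CPM, and Mfap5 84.0 and 102 against 338 and 484 CPM.

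Of 9 TGF-beta pathway genes tested, 4 passed and all were higher in the members. Tgfbr3, betaglycan, the TGF-beta coreceptor, measured 294 and 578 CPM against 0 and 72.7 CPM (3.01 ± 0.50, edgeR adjusted p = 2e-07). It did not pass against myofibroblast-like cells, with 170 of 340880 UMIs in the members and 132 of 256940 in that class. The latent TGF-beta binding proteins Ltbp2 and Ltbp3 measured 357 and 350 against 113 and 24.2 CPM and 178 and 191 against 37.5 and 42.4 CPM. Ctgf measured 1197 and 586 against 225 and 303 CPM. Itga5, the fibronectin receptor subunit, was the 1 of 4 integrins to pass, at 84.0 and 187 CPM against 0 and 36.3 CPM.

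Beside Wnt5a, the WNT feedback genes Axin2 (36 UMIs against 2, ratio 10.1, exact counting interval 2.61 to 86.8) and Nkd1 (39 against 2, ratio 11.0, interval 2.84 to 93.8) were higher, which makes 3 of 8 WNT genes tested. Foxf1, the mesenchymal transcription factor that answers to hedgehog, was the 1 of 9 transcription factors to pass, with 32 UMIs against 1 (ratio 18.0, exact counting interval 3.01 to 733). That share of calls is near the 10.8% over all genes tested. Of 12 immediate early genes, 6 were higher (Fos, Jun, Atf3, Ier2, Ier3 and Dusp1), with Jun at 882 and 3339 CPM against 263 and 1005 CPM. Only Atf3 of these 6 passed against myofibroblast-like cells, where Jun had 668 of 256940 UMIs against 904 of 340880 in the members. These genes differed between the batches as well, as the list of 14 summed to 3611 CPM in the members of Batch 1 and 14413 CPM in those of Batch 2, against 1614 and 6085 CPM in the comparison class. Rgs2, a regulator of G protein signalling, was called higher on Batch 2 (3693 against 545 CPM) and not Batch 1 (630 against 788 CPM).

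By the rule for named genes, the members were also higher in Fndc1 (92 UMIs against 0, at least 17.3-fold), Pcdh17 (39 against 0, at least 7.31-fold), Dusp10, a phosphatase of MAP kinases (34 against 0, at least 6.38-fold), Cdh4, a cadherin (31 against 0, at least 5.81-fold) and Egfem1 (30 against 0, at least 5.63-fold). Agt, angiotensinogen, measured 777 and 1050.5 CPM in the members against 37.5 and 12.1 CPM, with 332 UMIs against 3, a ratio of 62.3 (exact counting interval 21.1 to 303). Gpr64, an adhesion receptor, had 112 UMIs against 1 (ratio 63.0, interval 11.1 to 2511) and Gm26870, a predicted gene, 48 against 1 (27.0, 4.62 to 1089). The gene Cpm, carboxypeptidase M, had 68 against 1 (38.3, 6.64 to 1533). DESeq2 did not call Pcdh17, Dusp10, Cdh4, Egfem1, Gm26870 or Cpm at an adjusted p under 0.05. None of the genes in this paragraph was named by the same rule against myofibroblast-like cells, so they are not read as traits that set the members apart from both classes.

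The genes lower in the members by the same rule were Fabp4, Map3k7cl, Tnnt2, Notch3, Pi15, Dclk1, Fam129a, Ebf1, Actc1 and Anxa1. Fabp4, a fatty acid-binding protein, had 3 UMIs in the members and 296 in the comparison class (188 and 1762 CPM), a ratio of 175 with an exact counting interval of 59.4 to 855. Ebf1, a transcription factor of mural and fat lineages, had 3 against 55 (32.6, 10.6 to 163), Pi15 2 against 68 (60.4, 16.1 to 509), and Dclk1 and Fam129a 1 against 31 each (55.1, 9.18 to 2246). Anxa1 measured 21.0 and 12.2 CPM against 788 and 176 CPM.

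Tnnt2, cardiac troponin T, had 4 UMIs in the members against 217 (263 and 1272 CPM), and Actc1, cardiac alpha actin, 12 against 144. The 12 cardiac and skeletal muscle markers summed to 147 and 106 CPM in the members and 1239 and 4032 CPM in the comparison class. Of the 61 comparison cells 8 had a UMI of Myl7, Myh6, Actc1 or Tnni3, as had 8 of the 204 members. Without the 8 comparison cells 310 genes were called, 267 of them among the 322. Matrix fibroblast genes also moved, with Tcf21, Limch1, Gyg, Macf1 and G0s2 lower in the members, 5 of 8 tested, and the 13 markers of that list summed to 976 and 639 CPM against 3191 and 1677 CPM. The part of these cells in the result was not tested beyond the fit without cardiac genes.

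Of 62 genes called against this class and followed through the alternatives, 6 held their call in under 50% of those with an adjusted p, namely G0s2 (5 of 11), Gucy1b3 (5 of 12), Gyg (5 of 13), Pdgfrb (5 of 11), Ppp1r14a (5 of 12) and Rgs2 (3 of 14). Of the surfactant genes, Sftpc, Sftpb and Sftpa1 were higher, 3 of 5 epithelial genes tested, at 2918 and 2410 CPM for Sftpc against 413 and 721 CPM. With the cells of 5 or more Sftpc UMIs left out, Sftpc and Sftpa1 were not called, at 0.57 and 2.39 on the log2 scale. For Sftpc the cut was made on the tested gene itself, so the lost call decides nothing.

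**Figure D4:**
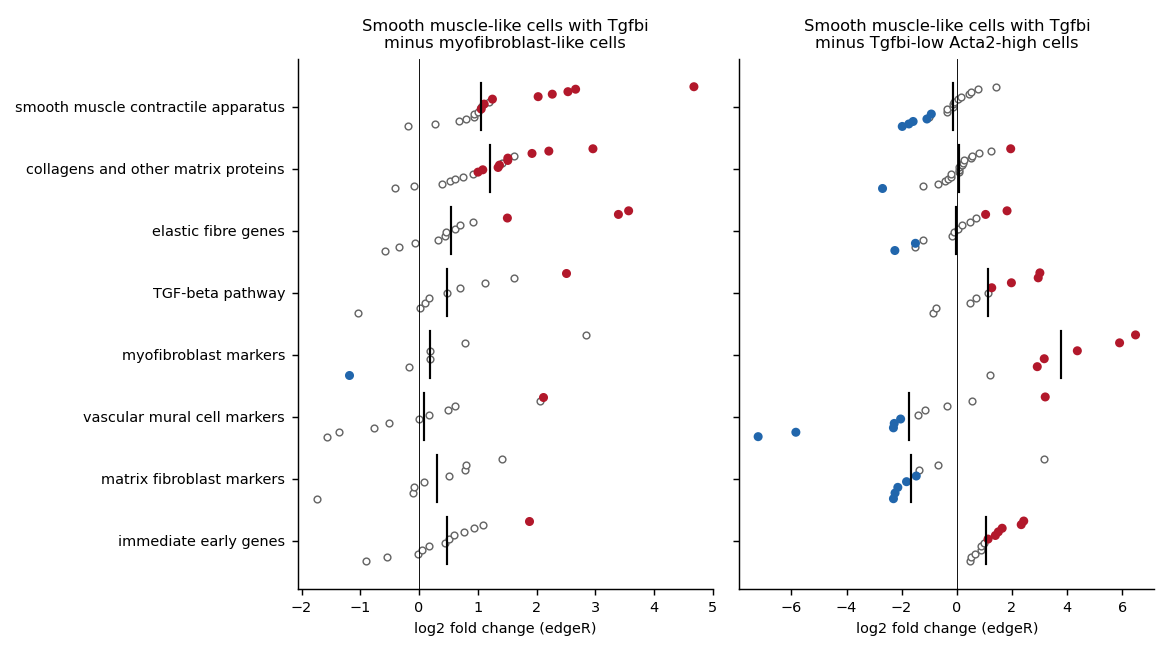
Log2 fold change (edgeR) of every tested gene of 8 lists, for smooth muscle-like cells with Tgfbi minus myofibroblast-like cells on the left and minus Tgfbi-low Acta2-high cells on the right. Filled red and blue points passed an adjusted p under 0.05 as higher and lower, open points did not, and the black bar is the median of the list; Map3k7cl, with no UMI in either class on the left, is drawn at 0 there. Contractile genes had a median of 1.06 on the left and -0.15 on the right, and myofibroblast genes 0.18 and 3.77.

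Among the members themselves, the 71 with a Pdgfra or Ednrb UMI were compared with the 133 without. Of 2007 genes tested in a fit of 4 classes, 1 (0.0498%) differed at an adjusted p under 0.05, and this was Sftpc, lower in those with Pdgfra or Ednrb (377 and 971 CPM against 4541 and 3330 CPM, -2.54 ± 0.34, edgeR adjusted p = 0.0089). The call was lost when cells with 5 or more Sftpc UMIs were left out, a cut on the tested gene itself that cannot decide whether it differed. No gene was called higher, 82 genes had an unadjusted p under 0.05, and DESeq2 also called 1. None of 16 contractile genes tested passed, with a median log2 fold change of -0.25 against -0.02 over all genes.

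Tagln was at 1966 and 961 CPM in members with Pdgfra or Ednrb and 3337 and 1555 CPM in members without (-0.74 ± 0.22, edgeR adjusted p = 0.26). Myh11 was at 781 and 345 against 568 and 554 CPM, so the order of the groups turned between the batches. Postn was at 135 and 480 against 894 and 794 CPM (-1.33 ± 0.35, edgeR adjusted p = 0.14), and Hhip at 350 and 365 against 206 and 187 CPM (0.87 ± 0.43, edgeR adjusted p = 0.97). None of these passed, and the SEs leave room for differences of more than 1 on the log2 scale in Postn and Hhip. Tgfbi, a gate gene, was at 7755 and 8761 CPM in members with Pdgfra or Ednrb and 10734 and 10805 CPM in those without.

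When members were held to those with Pdgfra or Ednrb, so that they matched the myofibroblast-like class on that gate, 18 of 1679 genes were called against it, all among the 93, 15 higher and 3 lower. Of the 93, 78 could be tested and 77 kept their sign. Sftpc was the exception, at -0.59.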

How the data were processed

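Whole-lung cells of 2 Drop-seq batches were analysed from tables of UMI counts per gene and cell, which the authors deposited without normalization. By the study's methods, reads were aligned to mm10 with Bowtie2 2.2.7 (version also in the submitters' processing notes), keeping a single alignment for a read, and Drop-seq tools counted the distinct UMIs of each gene and cell. The deposited tables held 9944 cells, each with at least 500 genes, and the limit of 10% mitochondrial UMIs left 8003, the number the study states. No doublet caller was run, and mixed cells were held back by the lineage genes only.

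Counts were summed by class and batch and tested with edgeR 4.0.16 in R 4.3.3 (filterByExpr, TMM, quasi-likelihood F test, batch as a block, Benjamini-Hochberg), with 3 classes in a fit with 2 residual degrees of freedom, and 4 classes with 3 where members were split. Sums of the same batch come from the same preparation, which is where the pairing comes from. The 12 gate genes were left out of the tests. The SE given after ± is approximate: the absolute log2 fold change divided by the square root of its F statistic. Fitted libraries held 26635 to 245608 UMIs. A comparison class at 0 was set to a floor of 3 counts over the class, and ratios of sums have exact binomial intervals. Named genes were the 10 with the largest change in each direction, called, with 1 direction in both batches and a mean of at least 100 CPM in the higher class, with the gate genes and members of 22 lists. Filip1l and Fhl2 were named after their values were seen, for their promoter matches. The members and lists were chosen with earlier results of these data known. In simulated data, 69.8% of 96 genes changed by 2 on the log2 scale and 17.4% of 92 changed by 1 were recovered for the first comparison. There 2 of 85 calls were false. For the comparison with Tgfbi-low Acta2-high cells the shares were 58.3% and 12.0%, and 2 of 69 calls were false. All simulated libraries had the same profile and a fixed dispersion, with no batch difference and no gate. These rates therefore cannot be carried over to the calls in the real data. Alternatives were DESeq2 1.42.0, no block, no TMM, no filter, other gates, thinning to 800 UMIs (numpy 2.4.6) and single batches. Leaving out comparison cells with cardiac genes and cells with 5 or more Sftpc UMIs was chosen after seeing the data.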

Additional observations from a re-analysis of the deposited data

Results flagged for a closer look

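Outside the cells compared, 22 of the 1940 cells of Batch 2 over the mitochondrial limit met all other gates of the smooth muscle-like class (1.13%, 95% Wilson interval 0.750 to 1.71%) and were used in no comparison. They had a median of 12.2% mitochondrial UMIs, up to 17.0%, and a median of 1851 UMIs per cell. Their summed levels were 7429 CPM of Tgfbi, 338 CPM of Actg2, 833 CPM of Acta2, 810 CPM of Tagln and 563 CPM of Myh11. Batch 1 had 1 cell over the limit, and it did not meet the gates.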

How the results depend on the processing

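Against myofibroblast-like cells the 93 calls became 18 with DESeq2 (where 1625 adjusted p-values were not given), 18 with members held to those with Pdgfra or Ednrb, 58 with no filter beyond 1 count, 52 with cells thinned to 800 UMIs and 0 without batch as a replicate block, and 67 to 95 under the other alternatives. Against Tgfbi-low Acta2-high cells the 322 calls became 70 with DESeq2, 57 with members of at least 5 Acta2 UMIs, 193 with no filter, 168 after thinning and 24 without the replicate block, and 219 to 398 under the others. The share of calls that were higher in the members, 67.7% and 53.7%, was 83.3% for members with Pdgfra or Ednrb in the first comparison. In the other it ranged from 45.8% without the replicate block and 46.2% with Sftpc cells left out, where most calls were lower, to 68.4% for members of at least 5 Acta2 UMIs and 69.0% after thinning. Between members with and without Pdgfra or Ednrb the 1 call became 0 with at least 2 muscle gene UMIs, without the replicate block, without TMM, after thinning and with Sftpc cells left out. The share of members, 2.55%, was 2.93% at a mitochondrial limit of 5% and 1.42% with at least 2 muscle gene UMIs, and 2.39 to 2.93% in single batches. Sftpc turned to -0.59 for members with Pdgfra or Ednrb and -0.22 with Sftpc cells left out, a cut made on the gene itself. In members of at least 5 Acta2 UMIs, Mylk turned to 0.42 and Tpm1 to 0.37. In single batches, against Tgfbi-low Acta2-high cells, Gucy1a3 ranged from -2.55 to 0.43, Gucy1b3 from -2.58 to 1.93, Ppp1r14a from -2.77 to 0.40 and Rgs2 from -0.22 to 2.57. The causes were not tested. The fits that thin cells or hold them to a subset use fewer cells and test fewer genes. With 11 comparison cells in Batch 1, low genes rest on few UMIs there.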
